A study of Rattus norvegicus with 4 samples.

Results

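Expression of 40 genes of autophagy and of its control by mTORC1 and AMPK was examined in INS-1 832/3 cells, a clonal rat insulinoma line that secretes insulin, grown flat or inside a bioprinted hydrogel. The genes were chosen by name, and all 40 were found among the 23360 gene symbols of the files. Messenger RNA had been sequenced from 2 cultures seeded as a standard 2D monolayer and from 2 cultures 3D-bioprinted in GelXA LAMININK 411, a hydrogel supplemented with laminin, in which the cells gather into clusters called pseudoislets. All 4 cultures shared the same medium, which contained Geneticin, and were harvested after 5 days at passage 3. The submitters call the cultures of a group biological replicates, but whether they came from separate printings is not given in the sources used here. The p-values of the gene test therefore rest on the spread between these cultures, with each gene's spread drawn toward that of genes of similar level. INS-1 832/3 is a single clone of a tumour line, and the reference used for quantification included the human insulin gene.

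Autophagy delivers cytoplasm and organelles to the lysosome inside a double membrane that is nucleated, fed with lipid and closed around its cargo. The ULK kinase complex starts the process, a class III PI3-kinase complex marks the membrane with PI3P, ATG9 and ATG2 supply lipid, and a ubiquitin-like conjugation system attaches LC3 and GABARAP proteins to the membrane, where cargo receptors dock. mTORC1, the nutrient-sensing kinase complex, holds the ULK complex off when amino acids are plentiful, and AMPK, the sensor of low cellular energy, opposes mTORC1, while in beta cells the pathway is known for clearing worn mitochondria and secretory granules.

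Values are TPM, transcript abundances corrected for transcript length and scaled to sum to 1000000 in each culture, summed here over the transcripts of a gene. The study's methods state the number of reads per sample, but TPM do not give the reads behind a value, and no counting interval is given. Markers of the labelled beta-cell identity were present, with all 10 of 10 tested and a summed level of 147297 to 160245 TPM in the monolayers and 157518 to 170182 TPM in 3D culture, most of it Ins1. Of the 10, Slc2a2 rose and Ins2 fell, from 13237 and 13340 TPM to 8957 and 9326 TPM (log2 fold change -0.58, adjusted p = 0.0095). Of the 4 other islet hormones, Ghrl was at 0 TPM and Sst and Ppy stayed below 1 TPM in every culture, while Gcg, the glucagon gene, read 41.9 and 73.8 TPM in the monolayers and 124 and 155 TPM in the 3D cultures. The endothelial list summed to between 1.08 and 1.68 TPM, with 4 of 5 genes in the files and Cdh5 at 0. The fibroblast list summed to between 1.91 and 2.35 TPM, with 4 of 5 in the files, and the leukocyte list to between 0.516 and 1.45 TPM, with Ptprc and Aif1 at 0. The part of Gcg-expressing cells in the results was not tested, and in bulk RNA a change in every cell cannot be told apart from a change in the share of cells.

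Of the 40 genes, 9 rose and 3 fell at an adjusted p below 0.05 (limma on log2(TPM + 1), Benjamini-Hochberg over 11960 genes), which is 30.0% of them. The same threshold was passed by 38.0% of all genes tested, 18.5% higher and 19.5% lower, against 22.5% higher and 7.5% lower of the 40. The rises were those of Ulk1, Ulk2, Becn1, Atg2b, Wipi1, Wipi2, Rictor, Tsc1 and Prkab1, and the falls were those of Atg101, Gabarapl1 and Rheb. The median log2 fold change of the 40 was 0.05 and that of all genes tested -0.0031, and the median size without sign was 0.15 against 0.22. The 3D and monolayer cultures did not overlap in 28 of the 40 genes (70.0%), with both 3D cultures above in 21 and below in 7, where 74.2% of all genes tested did not overlap. On TPM scaled between cultures, as used in the test, 28 again did not overlap, but with 18 above and 10 below. Over all genes tested, 75.5% did not overlap on this scale, 4466 above and 4566 below. Without scaling the median log2 fold change of all genes tested was 0.0364. Pik3c3, Atg4b and Sqstm1 became lower in both 3D cultures by scaling, and Atg4d, Atg12 and Stk11 came to overlap, while overlap is otherwise given on TPM as deposited. With 1 culture left out at a time, none of the 12 changed direction. When either 3D culture was left out, all or nearly all of the 12 calls were lost. Over all genes tested, most calls were lost. Without monolayer R2, 8 passed, with Ulk2, Atg2b, Wipi2, Tsc1 and Prkab1 lost and Map1lc3b gained, and without monolayer R1, 12 passed, with Wipi2 and Prkab1 lost and Prkaa2 and Map1lc3a gained. Ulk2, Atg2b, Wipi2, Tsc1 and Prkab1 were also lost, leaving 7, where genes of low level were not filtered out.

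**Figure D1:**
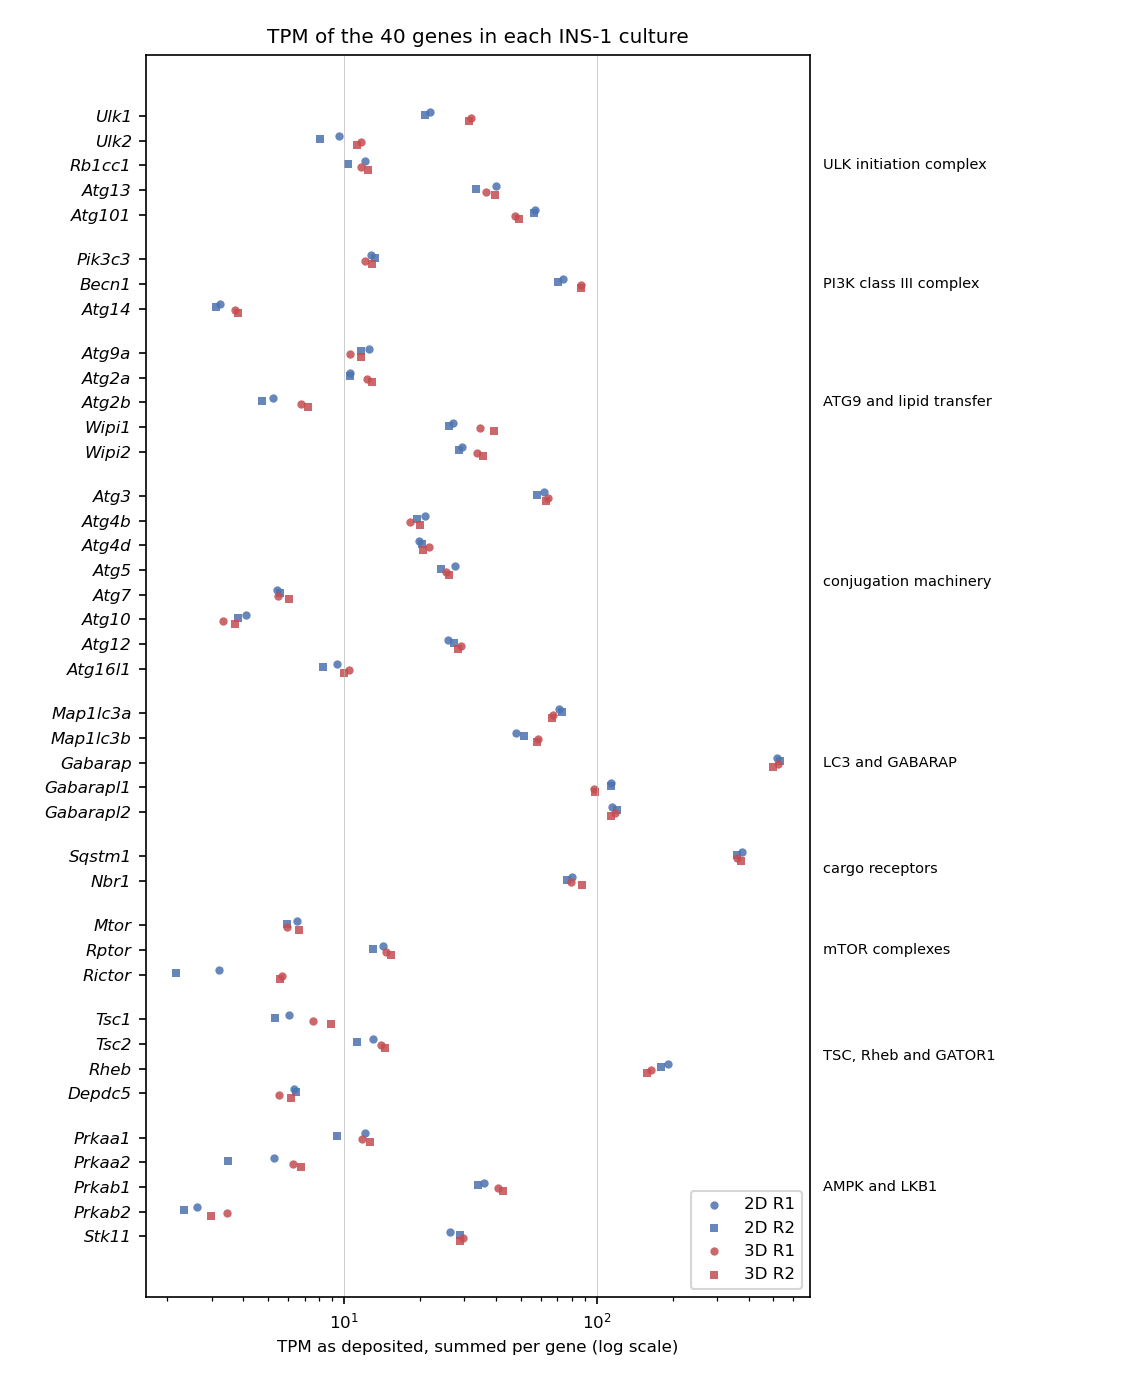
TPM of each of the 40 genes (log axis) in the 4 cultures, grouped by role, with monolayers in blue, 3D cultures in red, circles for R1 and squares for R2. The 3D points of Ulk1, Wipi1 and Rictor stand clear to the right of the monolayer points and those of Atg101, Gabarapl1 and Rheb to the left, while the points of the cargo receptors Sqstm1 and Nbr1 intermingle.

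The DNA just upstream of the start sites is shown for the 3 largest rises and the 3 falls among the genes whose promoter could be matched, so that genes moving in opposite directions can be set side by side. Promoters of 35 of the 40 genes were matched by symbol in RefSeq on the GRCr8 build, all except Atg9a, Becn1, Map1lc3a, Rb1cc1 and Rptor. Each stretch shows the 100 bases before the start in the direction of transcription, 5′ to 3′, and all 6 lie on the plus strand, at chr2:57539179-57539278 for Rictor, chr12:51511392-51511491 for Ulk1, chr3:32367597-32367696 for Tsc1, chr7:134277145-134277244 for Atg101, chr4:164666232-164666331 for Gabarapl1 and chr4:11013283-11013382 for Rheb. Capitals mark the GC box GGGCGG, read on either strand, and the palindrome CACGTG, the E-box at the core of the CLEAR element that the lysosomal transcription factor TFEB binds.
Rictor: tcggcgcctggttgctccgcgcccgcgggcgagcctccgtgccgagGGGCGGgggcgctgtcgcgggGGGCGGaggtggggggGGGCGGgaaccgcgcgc
Ulk1: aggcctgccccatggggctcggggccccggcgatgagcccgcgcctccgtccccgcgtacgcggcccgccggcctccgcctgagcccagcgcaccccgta
Tsc1: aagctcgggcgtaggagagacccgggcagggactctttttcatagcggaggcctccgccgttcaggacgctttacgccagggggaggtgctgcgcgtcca
Atg101: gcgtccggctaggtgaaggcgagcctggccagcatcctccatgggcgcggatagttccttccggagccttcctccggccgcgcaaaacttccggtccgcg
Gabarapl1: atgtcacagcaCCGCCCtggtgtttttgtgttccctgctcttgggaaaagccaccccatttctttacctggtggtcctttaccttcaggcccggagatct
Rheb: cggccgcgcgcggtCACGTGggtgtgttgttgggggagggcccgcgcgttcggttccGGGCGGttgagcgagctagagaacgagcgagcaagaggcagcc
Rictor held 3 GC boxes in this stretch and 4 in the 250 bases before its start, whereas Ulk1, Tsc1 and Atg101 held none in the 250 bases. Gabarapl1 held 1 GC box in this stretch and 3 in the 250 bases, and Rheb held 1 GC box and 1 E-box. Over 250 bases the GC box was found in 24 of the 35 promoters (68.57%), in 61.7% of the 8792 promoters of genes tested and in 32.39% of all 27457 promoters, and it was found in 4 of the 8 matched genes that rose and 2 of the 3 that fell. CACGTG was found in 3 of the 35 promoters (8.57%), those of Atg3, Atg5 and Rheb, and in 8.54% of promoters of genes tested and 5.79% of all. TATAAA was found in Atg13, Gabarapl1 and Sqstm1 (8.57%, against 5.62% and 13.09%), the AP-1 motif TGACTCA in Map1lc3b alone (2.86%, against 2.65% and 3.98%) and the forkhead motif GTAAACA in none (against 1.76% and 3.25%). The core of the antioxidant response element, TGACNNNGC, was found in 7 of the 35 (20%, against 12.86% and 10.17%), each motif being searched on both strands. The median GC content of the 250 bases was 68.6% for the 8 genes that rose, 56.8% for the 3 that fell, 61.4% for the other 24 and 60.8% for promoters of genes tested, and with 3 promoters in a set these are descriptions only.

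Within the ULK initiation complex, both kinases rose in 3D culture while Atg101, the subunit that steadies ATG13, fell, and the scaffold and the adaptor did not pass the test. Ulk1, the kinase that mTORC1 and AMPK both phosphorylate, read 21.9 and 21.0 TPM in the monolayers and 31.9 and 31.4 TPM in the 3D cultures. Both 3D cultures stood well above both monolayers, and the replicates of each group lay close together. Its log2 fold change was 0.50 (SE 0.06, adjusted p = 0.0053), the smallest p among the 40, and it kept its call under every alternative except that without 3D R1 (adjusted p = 0.0681). Ulk2, its paralog, read 9.53 and 8.08 TPM against 11.7 and 11.3 TPM, a log2 fold change of 0.32 (SE 0.08, adjusted p = 0.0334). The gap between the groups was similar in size to the gap between the Ulk2 monolayers. Atg101 read 57.0 and 56.7 TPM in the monolayers and 47.6 and 49.4 TPM in 3D culture, with a log2 fold change of -0.27 (SE 0.06, adjusted p = 0.0187). Rb1cc1, which encodes the scaffold FIP200, read 12.1 and 10.3 against 11.6 and 12.4 TPM, and the adaptor gene Atg13 read 39.96 and 33.3 against 36.5 and 39.8 TPM. In both of these the 3D values fell within or across the monolayer range, and the 95% confidence intervals of the log2 fold change ran from -0.14 to 0.26 for Rb1cc1 and from -0.19 to 0.23 for Atg13. Summed over the 5 genes, the complex took 140 and 129 TPM in the monolayers and 139 and 144 TPM in 3D culture, which overlap.

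Of the class III PI3-kinase complex that writes PI3P on the forming membrane, Becn1 alone rose. Becn1 encodes Beclin 1, the regulatory subunit that recruits the others, and it read 73.7 and 70.2 TPM in the monolayers and 86.7 and 86.7 TPM in 3D culture. The 3D cultures were nearly equal and above both monolayers (log2 fold change 0.22, SE 0.05, adjusted p = 0.0231). Pik3c3, the catalytic subunit VPS34, read 12.8 and 13.3 against 12.1 and 13.0 TPM, and the groups overlapped (adjusted p = 0.349). Atg14, which directs the complex to autophagy, was among the scarcest of the 40 genes at 3.24 and 3.13 against 3.70 and 3.83 TPM. Its groups did not overlap, but its log2 fold change of 0.15 did not pass (adjusted p = 0.232).

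Of the 5 genes that read PI3P and feed lipid to the membrane, 3 rose and none fell, where 18.5% of all genes tested rose, and the median log2 fold change was 0.21. Of the 3 calls, those of Atg2b and Wipi2 were lost without monolayer R2 and without the filter on low values. Wipi1, a PI3P-binding propeller protein, read 27.1 and 26.1 TPM in the monolayers and 34.7 and 39.3 TPM in 3D culture. The 3D cultures differed from each other more than the monolayers did, but both were higher (log2 fold change 0.42, SE 0.07, adjusted p = 0.0113). Wipi2, the family member that brings ATG16L1 to the membrane, read 29.2 and 28.6 against 33.7 and 35.6 TPM (log2 fold change 0.21, SE 0.06, adjusted p = 0.0396). Atg2b, a bridge-like lipid transfer protein, read 5.24 and 4.73 against 6.75 and 7.19 TPM (log2 fold change 0.38, SE 0.08, adjusted p = 0.0202). Its paralog Atg2a read 10.6 and 10.6 against 12.3 and 12.9 TPM without overlap, and its log2 fold change of 0.19 did not pass after adjustment (adjusted p = 0.0760). Atg9a, the scramblase carried on vesicles to the site, went the other way in value at 12.5 and 11.7 against 10.6 and 11.7 TPM, and did not pass (adjusted p = 0.152).

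None of the 8 genes of the conjugation machinery passed the test in either direction, and their log2 fold changes lay between -0.17 and 0.15. Atg7, the E1-like enzyme on which both conjugation branches depend, read 5.43 and 5.60 TPM in the monolayers and 5.47 and 6.08 TPM in 3D culture (95% confidence interval of the log2 fold change -0.21 to 0.25). Of the E2-like enzymes, Atg3, which hands over LC3, read 61.7 and 58.0 against 64.5 and 62.9 TPM, and Atg10, which hands over ATG12, read 4.11 and 3.82 against 3.32 and 3.71 TPM. The Atg3 and Atg10 groups did not overlap and pointed in opposite directions, and the adjusted p was 0.536 and 0.197. The E3-like assembly was represented by Atg5 at 27.5 and 24.1 against 25.4 and 26.1 TPM, Atg12 at 25.9 and 27.4 against 29.1 and 28.3 TPM and Atg16l1 at 9.42 and 8.26 against 10.5 and 10.0 TPM. Atg16l1 had the largest positive log2 fold change of the 8, with an interval from -0.04 to 0.35. The proteases that prime and recycle LC3 read 20.9 and 19.5 against 18.2 and 19.9 TPM for Atg4b and 19.8 and 20.3 against 21.6 and 20.5 TPM for Atg4d. The 8 genes summed to 175 and 167 TPM in the monolayers and 178 and 178 TPM in 3D culture as deposited, and to 173 and 174 against 177 and 174 TPM after scaling, which overlap.

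Among the LC3 and GABARAP genes, whose proteins coat the membrane, Gabarapl1 fell and the other 4 did not pass, and Map1lc3b was the one member with a positive log2 fold change. Gabarapl1 read 114 and 114 TPM in the monolayers and 97.5 and 98.3 TPM in 3D culture. The replicates of each group were almost identical and the groups well apart (log2 fold change -0.26, SE 0.06, adjusted p = 0.0191). Map1lc3b, which encodes the widely used autophagosome marker LC3B, read 47.9 and 51.4 against 58.5 and 58.1 TPM, with a log2 fold change of 0.18 (adjusted p = 0.0992). Map1lc3a, encoding LC3A, read 70.9 and 73.0 against 67.3 and 66.5 TPM, with a log2 fold change of -0.15 (adjusted p = 0.115). Neither Map1lc3 gene overlapped between groups, and their directions were opposite. Gabarap, the most abundant of the 40 genes, read 515 and 531 against 521 and 500 TPM, and Gabarapl2 read 115 and 120 against 118 and 114 TPM, and both overlapped.

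The cargo receptors gave no difference that passed. Sqstm1, encoding p62, which links ubiquitinated cargo to LC3 and is itself degraded by autophagy, read 377 and 358 TPM in the monolayers and 358 and 372 TPM in 3D culture. Nbr1, a receptor of similar build, read 80.1 and 76.1 against 79.4 and 87.8 TPM. The cultures of both groups were interleaved for each gene, and the 95% confidence intervals of the log2 fold change were -0.19 to 0.08 for Sqstm1 and -0.10 to 0.21 for Nbr1.

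On the mTOR side, Rictor, the defining subunit of mTORC2, had the largest rise of the 40 genes, whereas the kinase and the defining subunit of mTORC1 did not pass. Rictor read 3.19 and 2.18 TPM in the monolayers and 5.71 and 5.61 TPM in 3D culture. The lower 3D culture stood well above the higher monolayer, and the spread lay mostly between the monolayers (log2 fold change 0.84, SE 0.14, adjusted p = 0.0101). At so low a level the log2(TPM + 1) scale understates the change, and the log2 fold change ran from 0.66 to 1.03 across the alternatives. Mtor, the kinase of both complexes, read 6.52 and 5.95 against 5.94 and 6.63 TPM, and its 95% confidence interval of -0.24 to 0.19 included 0. Rptor, which recruits substrates to mTORC1, read 14.3 and 13.0 against 14.7 and 15.3 TPM (log2 fold change 0.09, adjusted p = 0.317).

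Upstream of mTORC1, an inhibitor rose and the activating GTPase fell. Tsc1, encoding hamartin, which stabilises the complex that turns Rheb off, read 6.05 and 5.36 TPM in the monolayers and 7.55 and 8.91 TPM in 3D culture (log2 fold change 0.42, SE 0.10, adjusted p = 0.0240). Rheb, the GTPase that activates mTORC1 on the lysosome, read 192 and 180 TPM in the monolayers and 163 and 158 TPM in 3D culture (log2 fold change -0.26, SE 0.06, adjusted p = 0.0194). Neither gene overlapped between groups. Tsc2, the subunit with the GTPase-activating domain, read 13.0 and 11.3 against 14.0 and 14.6 TPM, with a log2 fold change of 0.18 that did not pass (adjusted p = 0.106). Depdc5, a subunit of GATOR1, the brake that answers to amino acids, read 6.34 and 6.46 against 5.54 and 6.15 TPM, with a log2 fold change of -0.15 that did not pass (adjusted p = 0.219).

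All 5 genes of AMPK and its activating kinase had a positive log2 fold change, where 5926 of all 11960 genes tested had one, and Prkab1 passed the test. Prkab1, encoding the scaffold subunit beta 1, read 35.9 and 33.9 TPM in the monolayers and 40.7 and 42.6 TPM in 3D culture (log2 fold change 0.21, SE 0.06, adjusted p = 0.0359). Prkaa2, encoding the catalytic subunit alpha 2, read 5.30 and 3.47 against 6.29 and 6.74 TPM, with a log2 fold change of 0.47 and an adjusted p of 0.0627. The monolayers of Prkaa2 differed from each other by more than the nearest values of the groups did, and with monolayer R1 left out its log2 fold change was 0.68, whereas with monolayer R2 left out it was 0.25. Prkaa1, encoding alpha 1, read 12.1 and 9.41 against 11.7 and 12.6 TPM, and overlapped. Prkab2, encoding beta 2 and the scarcest of the 40, read 2.63 and 2.33 against 3.44 and 2.98 TPM (adjusted p = 0.140). Stk11, encoding LKB1, the kinase that activates AMPK, read 26.3 and 28.8 against 29.7 and 28.9 TPM, with a log2 fold change of 0.04 (adjusted p = 0.692). With monolayer R1 left out, the log2 fold change of Stk11 was -0.056.

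**Figure D2:**
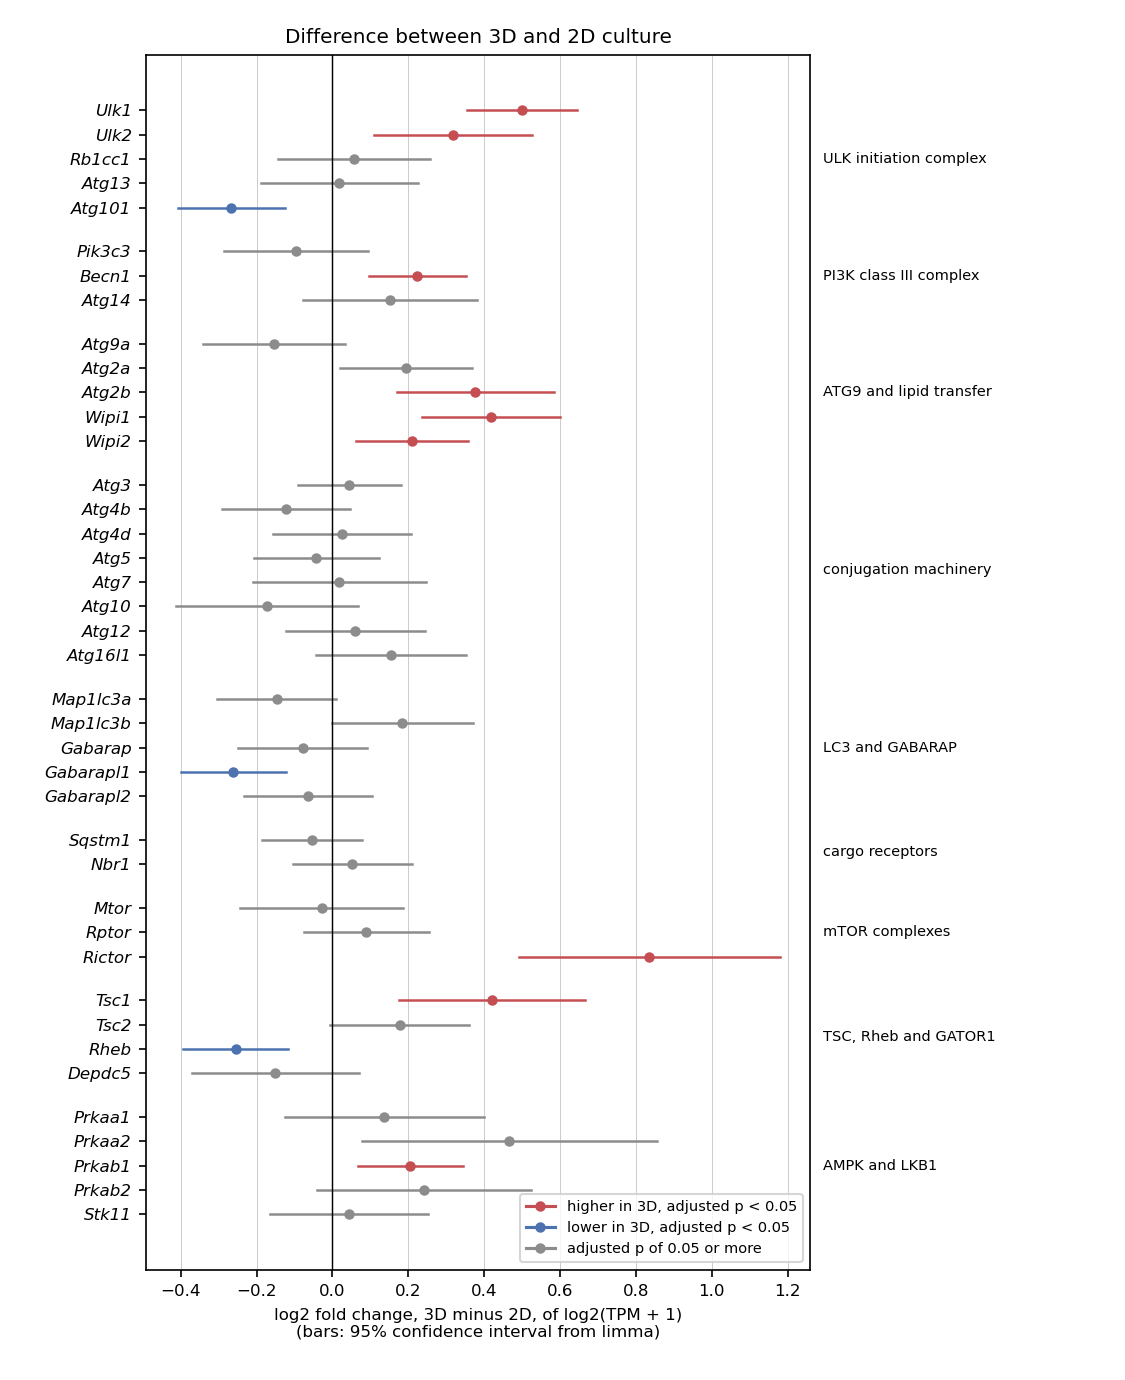
Log2 fold change of each of the 40 genes, 3D minus 2D, on the log2(TPM + 1) scale, with the 95% confidence interval from limma, in red for rises and blue for falls at an adjusted p below 0.05 and in grey otherwise. Rictor lies farthest to the right at 0.84, the lowest value is that of Atg101 at -0.27, and all 8 genes of the conjugation machinery are grey.

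Paralogs and other pairs of subunits can be compared inside a culture, as a share of their summed TPM, which needs no scaling between cultures. With 2 cultures against 2, an exact two-sided permutation test cannot give a p below 0.333, so each share is given with its spread and none can pass a threshold. Gabarapl1 made up 13.2% and 12.8% of the LC3 and GABARAP transcripts in monolayer and 11.3% and 11.7% in 3D culture, while Map1lc3b made up 5.55% and 5.78% and then 6.78% and 6.95%. The mean shares differed by -1.48 and 1.196 percentage points, with no overlap (exact permutation p = 0.333 for each). Gabarap took the bulk in all 4 cultures, at 59.7% and 59.7% against 60.4% and 59.8%, with Gabarapl2 at 13.4% and 13.5% against 13.7% and 13.6% and Map1lc3a at 8.22% and 8.21% against 7.81% and 7.94%.

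Among the kinases, alpha 2 (Prkaa2) made up 30.5% and 26.9% of the AMPK alpha transcripts in monolayer and 34.9% and 34.8% in 3D culture, a difference of 6.11 percentage points. The 3D cultures were nearly equal, so that the spread came from the monolayers. The share of Prkab2 in AMPK beta overlapped, at 6.83% and 6.44% against 7.81% and 6.53% (exact permutation p = 0.667). Ulk1 made up 69.7% and 72.2% of the ULK kinases in monolayer and 73.1% and 73.5% in 3D culture, a difference of 2.37 percentage points that was 1.12 without monolayer R1 and 3.62 without monolayer R2. Atg2b made up 33.2% and 30.9% of ATG2 against 35.4% and 35.8%, and Wipi1 made up 48.1% and 47.7% of WIPI1 and WIPI2 against 50.7% and 52.5%. Both of these shares were higher in each 3D culture than in either monolayer (exact permutation p = 0.333). Shares of Tsc1 with Tsc2 and of Rptor with Rictor, which define different mTOR complexes, were computed after the values had been seen. Rictor made up 18.3% and 14.3% of Rptor and Rictor in monolayer and 28.0% and 26.8% in 3D culture. The difference was 11.1 percentage points. Tsc1 made up 31.8% and 32.2% of Tsc1 and Tsc2 against 35.1% and 37.9%, a difference of 4.55 percentage points, or 7.74 from the largest transcript of each gene alone. Of the pairs compared, Rptor with Rictor had the largest difference, but this pair was formed after the values had been seen, so its rank is a description only.

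**Figure D3:**
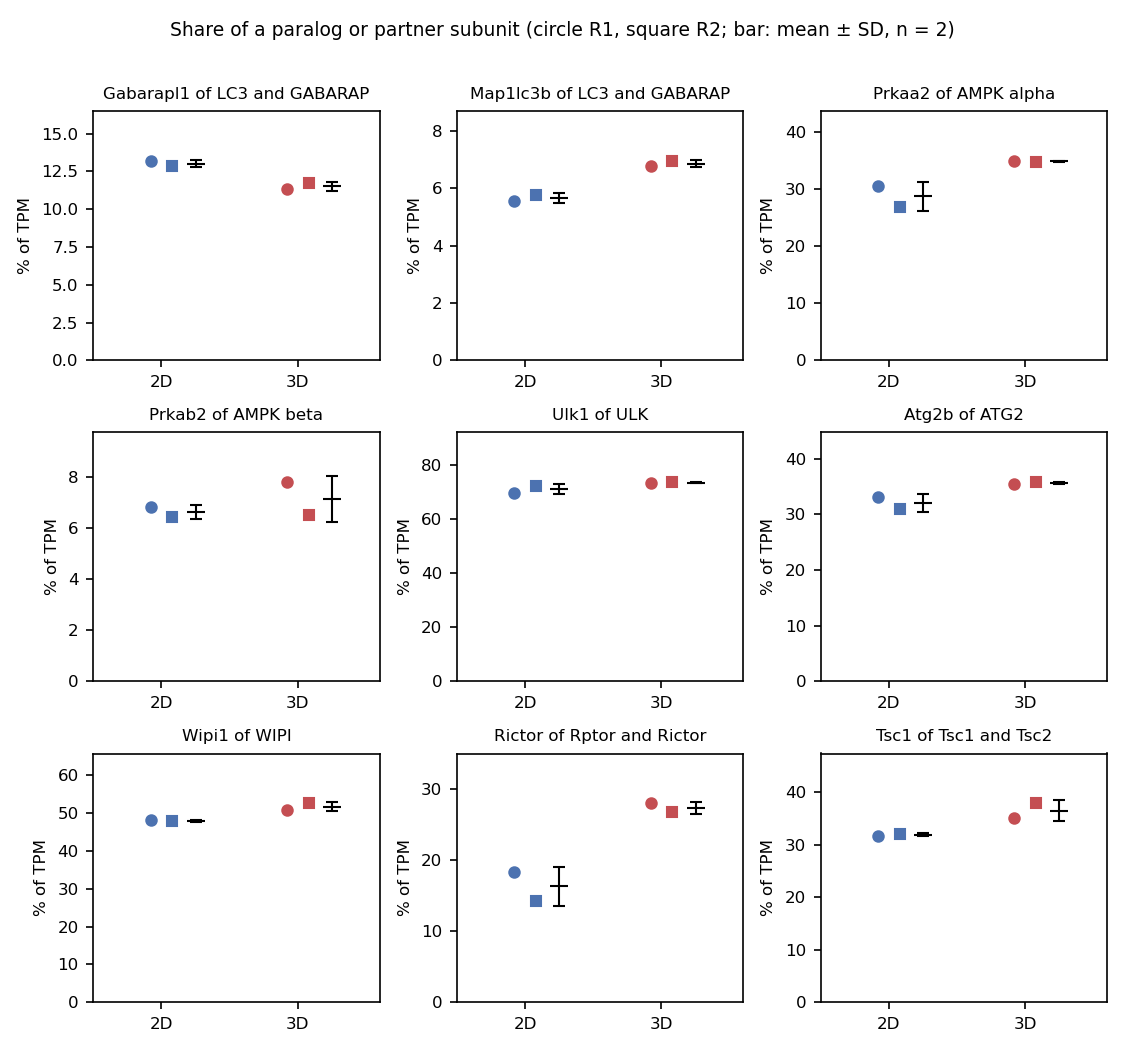
Share of a gene in the summed TPM of its family or pair, in %, in each monolayer (blue) and 3D culture (red). Circles stand for R1, squares for R2 and black bars for the mean and SD of 2 cultures. Rptor and Rictor belong to different mTOR complexes. Rictor moved from a mean of 16.3% to 27.4% and Prkaa2 from 28.7% to 34.8%, while the Prkab2 points of the groups overlap.

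Since TPM are corrected for length, levels can also be compared between genes. Gabarap led at a mean of 517 TPM over the 4 cultures, followed by Sqstm1 at 366 and Rheb at 173 TPM, and the ranges of these 3 did not overlap each other or that of the next gene. Gabarapl2 at 117 and Gabarapl1 at 106 TPM came next and overlapped, followed after a gap by Nbr1, Becn1 and Map1lc3a between 80.8 and 69.4 TPM. Below Atg4b at 19.6 TPM, each gene overlapped its neighbour down to Prkab2 at 2.85 TPM, so that the order among Mtor, Depdc5, Atg2b and Atg7 was not resolved. The rises mostly came at lower levels than the falls, but Becn1, which rose, lay at 79.3 TPM, above Atg101, which fell, at 52.7 TPM. The median mean TPM was 26.6 for the 9 that rose and 106 for the 3 that fell. It was 13.8 for the 28 that did not pass and 16.1 for all genes tested. Of the 11 genes with a mean of at least 50 TPM, 7 had a log2 fold change below 0, and of the 29 below 50 TPM, 22 had one above 0. The same split was not computed over all genes tested. Across the 40 genes Spearman's rho between mean TPM and log2 fold change was -0.346, and across all 11960 genes tested it was -0.221. These points share the same 4 libraries, and the values are a description. Together the 40 genes took 2134 and 2091 TPM in the monolayers and 2126 and 2137 TPM in 3D culture, which overlap, and after scaling 2112 and 2178 TPM against 2110 and 2089 TPM, which do not overlap by a narrow margin.

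**Figure D4:**
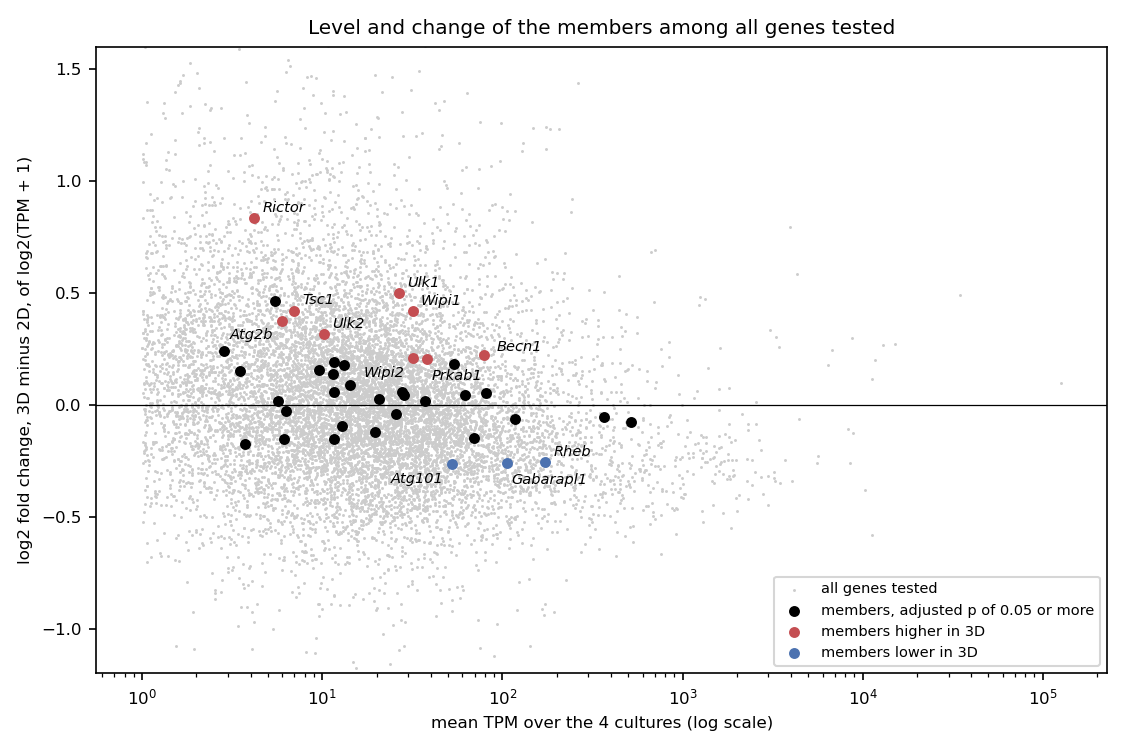
Log2 fold change (3D minus 2D) against mean TPM over the 4 cultures (log axis) for all genes tested in grey and for the 40 genes in black, red for rises and blue for falls. The 3 falls lie at 52.7 TPM and above while Rictor lies at 4.17 TPM, and 86 genes fall outside the plotted range of -1.2 to 1.6.

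The deposited values are per transcript, and 8 of the 40 genes had more than 1 transcript with a mean of at least 1 TPM. In a fit over 15020 single transcripts, added after the data had been seen, 3 of the 21 transcripts of these genes rose and 2 fell, where 23.5% of all transcripts passed, 10.8% higher and 12.7% lower. Salmon shares reads among transcripts that overlap, so the split between transcripts of 1 gene is less certain than the gene's sum. The Becn1 transcripts that passed were minor ones. ENSRNOT00000075886.1 read 7.84 and 7.71 TPM in the monolayers and 11.5 and 12.6 TPM in 3D culture (log2 fold change 0.51, adjusted p = 0.0224 in limma). ENSRNOT00000076146.1 read 1.96 and 1.84 against 5.21 and 4.77 TPM (log2 fold change 1.00, adjusted p = 0.0176 in limma). Meanwhile the main Becn1 transcript, ENSRNOT00000027868.7, read 44.2 and 35.1 against 36.3 and 43.8 TPM, and overlapped.

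Sqstm1 and Atg3 each had a transcript that passed inside a gene that did not. For Sqstm1, the minor transcript ENSRNOT00000004308.6 fell from 55.4 and 41.3 TPM to 28.3 and 27.0 TPM (log2 fold change -0.83, adjusted p = 0.0228 in limma). Its share of the gene went from 14.7% and 11.5% to 7.90% and 7.26%. The major transcript, ENSRNOT00000059255.5, read 322 and 317 against 330 and 345 TPM, and the sums of the gene overlapped between groups. For Atg3, ENSRNOT00000093379.1 rose from 2.74 and 3.62 TPM to 7.96 and 7.75 TPM (log2 fold change 1.04, adjusted p = 0.0214 in limma), or from 4.44% and 6.24% to 12.4% and 12.3% of the gene. The fall of Atg101 lay in its major transcript, ENSRNOT00000087415.1, at 47.4 and 45.9 against 39.0 and 38.3 TPM (log2 fold change -0.33, adjusted p = 0.0247 in limma). Transcripts of Nbr1 (ENSRNOT00000077942.1, 30.5 and 33.5 against 39.8 and 41.4 TPM, adjusted p = 0.0847) and Tsc2 (ENSRNOT00000016221.3, 2.89 and 2.47 against 4.02 and 4.74 TPM, adjusted p = 0.0525) did not overlap between groups and did not pass in limma. The transcripts of Atg5 and Atg16l1 gave no call.

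**Figure D5:**
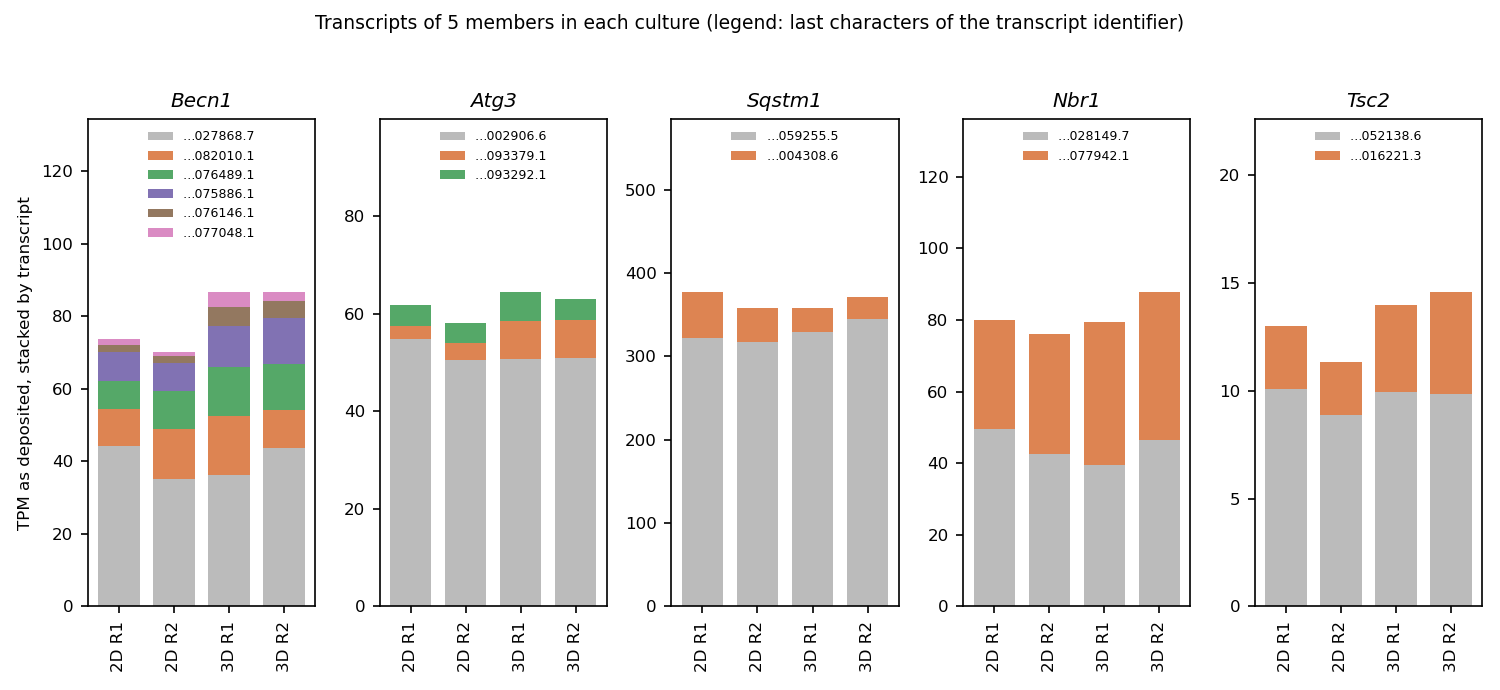
TPM of each transcript of Becn1, Atg3, Sqstm1, Nbr1 and Tsc2, stacked to the gene's sum, in each of the 4 cultures, with transcripts above a mean of 1 TPM named by the last characters of their identifiers. The minor Sqstm1 transcript in orange shrinks from 55.4 and 41.3 TPM to 28.3 and 27.0 TPM in 3D culture while the height of the bars stays between 358 and 377 TPM.

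Other genes of the same pathway, listed by role, also had more rises than falls. Of 84 such genes, 77 were in the files and 73 were tested. Of these, 17 rose and 7 fell (23.3% and 9.59%, against 18.5% and 19.5% of all genes tested), with a median log2 fold change of 0.08. Without the filter on low values, 7 rose and 6 fell, where 1627 of all genes rose and 2112 fell. The substrates of mTORC1 had 3 rises among 5 tested and no fall, or 1 rise without scaling. Its inhibitors and amino acid sensors, listed together with Flcn and Fnip2, had no fall and 3 rises among 8, those of Castor2, Flcn and Fnip2. Of these 8 genes, 5 had a positive log2 fold change. The 3 with a negative one, Ddit4 (-0.23), Sesn1 (-0.13) and Sesn2 (-0.21), did not pass. Other mTOR subunits, listed together with Telo2 and Tti1, had 2 rises and 1 fall of 7, the fall being that of Telo2. GATOR and KICSTOR subunits had 3 rises and 1 fall of 9 and other cargo receptors 2 and 0 of 6. The fusion machinery had 1 and 1 of 9, and the AMPK gamma subunits with upstream kinases 1 and 1 of 7. The membrane source genes, listed together with Epg5, had 1 rise, that of Epg5 itself, and 1 fall, that of Vmp1, of 5. None of the 6 partners of the PI3-kinase complex passed, nor did either of the 2 other conjugation genes. The Rag GTPases and Ragulator, which dock mTORC1 on the lysosome, were listed together with Slc38a9. Of these 9 genes, 8 had a negative log2 fold change, or 6 without scaling between cultures, with 1 rise and 2 falls.

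By the smallest p, the leading rises of the wider list were those of Rps6kb2, Ncoa4, Plekhm1, Ccpg1 and Flcn. Rps6kb2, the S6 kinase 2 that mTORC1 phosphorylates, read 30.1 and 29.6 TPM in the monolayers and 41.8 and 45.5 TPM in 3D culture (log2 fold change 0.49, adjusted p = 0.0061). Of the cargo receptors, Ncoa4, which delivers ferritin, rose at 35.8 and 32.6 against 47.5 and 46.6 TPM (adjusted p = 0.0075), and Ccpg1, which delivers endoplasmic reticulum, rose at 28.4 and 28.5 against 38.4 and 37.9 TPM (adjusted p = 0.010). Plekhm1, an adaptor for fusion with the lysosome, read 8.70 and 8.14 against 11.7 and 12.8 TPM (adjusted p = 0.0098), and Flcn, a GTPase-activating protein for Rag GTPases, read 19.8 and 19.2 against 25.4 and 26.2 TPM (adjusted p = 0.0109). In each of these 5 genes both 3D cultures lay above both monolayers. The leading falls were those of Vamp8, a SNARE of autophagosome fusion that also serves secretion, at 1087 and 1186 against 871 and 886 TPM (log2 fold change -0.41, adjusted p = 0.0160), Prkag2, an AMPK gamma subunit, at 9.12 and 8.49 against 6.91 and 6.78 TPM (adjusted p = 0.0172), and Vmp1, a lipid scramblase of the endoplasmic reticulum, at 41.5 and 38.4 against 32.9 and 34.9 TPM (adjusted p = 0.0194). The Ragulator subunits Lamtor5, at 70.3 and 70.0 against 61.7 and 58.1 TPM (adjusted p = 0.0259), and Lamtor2, at 269 and 284 against 235 and 248 TPM (adjusted p = 0.0454), completed the 5. Among AMPK subunits, Prkab1 of the 40 thus rose while Prkag2 fell. All or nearly all of the 24 calls of the wider list were lost when either 3D culture was left out. Over all genes tested, most calls were lost. Some were also lost without monolayer R2.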

How the data were processed

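Messenger RNA from 2 monolayer and 2 3D-bioprinted INS-1 cultures was sequenced by the authors as single-end reads from stranded libraries, checked with FastQC 0.11.8 and quantified with Salmon 1.2, transcript by transcript, on rn4 to which the human insulin gene had been added. The authors deposited TPM, written with decimal commas and entered as another unit in the automated check of units, and each culture sums to 1000000. Their gene-level summary and count test were not repeated, since both start from counts.

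Groups and replicate numbers came from the sample titles. TPM were summed per gene symbol and genes with a mean of at least 1 TPM kept. An unweighted TMM factor (0.960 to 1.02), with 30% of M values and 5% of A values cut from either end, scaled each culture. Differences in log2(TPM + 1) were tested in R 4.3.3 by limma 3.58.1 with an intensity trend in its empirical Bayes step and Benjamini-Hochberg adjustment over all 11960 genes. Fold changes on this scale understate changes of low genes. Whether groups overlap was judged on TPM as deposited and, as an alternative added after the data had been seen, on scaled TPM. Single transcripts were fitted the same way, and shares were compared by a two-sided exact permutation test. No pair of cultures shared an identical value above 0. The steps were tested on simulated data.

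The 40 genes and the other lists were chosen with earlier results of these data known, and the wider list was written by gene function. All 40 genes are named, as are the 5 rises and 5 falls of smallest p in the wider list with a mean of at least 5 TPM. Of that list Atg4a, Retreg1, Rragb, Seh1l, Ddit4l, Fnip1 and Prkag1 were not analysed here, and Prr5l, Castor1, Eif4ebp1 and Prkag3 fell below the filter. Promoters came from RefSeq on GRCr8, matched by symbol, and gene coordinates were not used because the build of the deposited transcript identifiers was not settled (names usual for a later assembly than rn4 are among them). Alternatives were the scaling, the filter, the pseudocount (0.1 and 0.5), the empirical Bayes options, a replicate block, an adjusted p below 0.01, and each culture left out.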

Additional observations from a re-analysis of the deposited data

How the results depend on the processing

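Precision was limited by 2 cultures a group, and TPM do not give the reads behind a value, so the uncertainty of low genes such as Rictor and Prkab2 could not be split into counting error and spread. With a 3D culture left out, the spread came from the monolayer pair alone and the lone 3D culture was assumed to vary alike. Of 4541 calls over all genes, the number was 136 to 4515 when 1 culture was left out (105 to 2282 higher, 31 to 2233 lower), of the 12 among the 40 genes 0 to 12 (0 to 8 higher, 0 to 4 lower), and of the 24 in the wider list 0 to 22 (0 to 16 higher, 0 to 6 lower). At an adjusted p below 0.01 the counts were 1418 (724 higher, 694 lower), 1 (1 higher, 0 lower; Ulk1) and 3 (3 higher, 0 lower). Without the filter on low values they were 7 of the 40 (4 higher, 3 lower) and 13 of the wider list (7 higher, 6 lower). All genes then gave 3739 calls (1627 higher, 2112 lower). More genes enter the adjustment without the filter, and the scaling is computed over them too. Without scaling 4 genes of the wider list were lower, and the cause was not tested. The other scaling, pseudocount, filter and empirical Bayes settings gave 10 to 13 calls among the 40. The share of Tsc1 differed by 7.74 percentage points with the largest transcript of each gene alone, in place of 4.55, and this alternative was chosen after the data had been seen.

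Of the 12 genes called, none reversed under any alternative run. Small differences that did not pass reversed for 9 genes. Without the filter Atg13 had a log2 fold change of -0.018, Atg4d of -0.0096 and Atg7 of -0.014, and without scaling Mtor had one of 0.0093, and the cause was not tested. With 1 culture left out the log2 fold changes ran from -0.0154 to 0.123 for Rb1cc1, -0.076 to 0.108 for Atg13, -0.0299 to 0.0768 for Atg4d, -0.0998 to 0.0110 for Atg5, -0.0365 to 0.0738 for Atg7, -0.0155 to 0.131 for Atg12, -0.00644 to 0.115 for Nbr1, -0.0853 to 0.0315 for Mtor and -0.056 to 0.14 for Stk11.

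Deviations from the group means of same-numbered cultures had a correlation of -0.006 across genes. With only 2 pairs this cannot decide whether same-numbered cultures were paired, and the sources used here do not say. A replicate block gave 4814 calls over all genes, 13 among the 40 (10 higher, 3 lower, Prkaa2 gained) and 26 in the wider list.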
